A study of Homo sapiens with 25 samples.

Results

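The GIMAP genes (GTPases of immunity-associated proteins) of the human T-cell acute lymphoblastic leukaemia line DND-41 were followed across 5 levels of histidine, an essential amino acid, in the culture medium. The members were taken by gene symbol: GIMAP1, GIMAP2, GIMAP4, GIMAP5, GIMAP6, GIMAP7 and GIMAP8, which are 7 of the 31919 rows of the deposited table of normalized counts per gene. The family was chosen from earlier results on these libraries, the normalized counts of the same comparisons, and within it no measured value chose among the genes, so the differences given here describe the members and are not independent evidence. Strand-specific sequencing libraries were made from total RNA of the cells, and 25 of them were analysed. On day 6 there were 3 libraries in medium with no histidine, 3 at 12.5%, 2 at 25%, 3 at 50% and 3 at 100% (full medium). On day 9 there were 3 at 12.5%, 3 at 25%, 2 at 50% and 3 at 100%. All groups are the same cell line and differ only in the histidine level and the day, as far as the labels say. Replicate 1 of the no-histidine group carries day 6 in its title and day 9 in its time label. Whether replicates came from cultures kept apart is not in the labels, and p-values therefore cover the spread among libraries, part of which may be technical.

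GIMAP proteins are small GTP-binding proteins of one family, found mainly in lymphocytes and anchored to, or active at, internal membranes. Their GTP-binding fold is related to that of septins and dynamin-like proteins. In rats and mice, loss of GIMAP5 leaves few peripheral T cells, and loss of GIMAP1 in mice removes mature T and B cells, so the family is known for its part in lymphocyte survival and homeostasis. In developing mouse thymocytes the genes are switched on at different stages.

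The 7 genes lie in one cluster on the long arm of chromosome 7, at chr7:150450630-150750033 (GRCh38, GENCODE 29), a stretch of 299.4 kb. In chromosomal order they are GIMAP8 (150450630 to 150479392), GIMAP7 (150514830 to 150521073), GIMAP4 (150567277 to 150573955), GIMAP6 (150625375 to 150632648), GIMAP2 (150685697 to 150693641), GIMAP1 (150716557 to 150724284) and GIMAP5 (150722253 to 150750033). GIMAP6 is read from the minus strand and the other members from the plus strand. A promoter of 300 bases, 250 before and 50 after the gene start in RefSeq, was found for 7 of the 7 members (GRCh38.p14). RefSeq places the start of GIMAP5 inside the GENCODE gene given above, so its promoter window lies downstream of that gene's first base. The promoters of GIMAP7, GIMAP8, GIMAP5 and GIMAP4 are shown for the following reasons. GIMAP7 and GIMAP8 had the largest differences without histidine. GIMAP5 was the tested member without its highest mean at 25% on either day, and GIMAP4 was close to 0. Capitals mark matches to the motifs named after the sequences.
GIMAP7 promoter, chr7:150514622-150514921 (GRCh38.p14, plus strand): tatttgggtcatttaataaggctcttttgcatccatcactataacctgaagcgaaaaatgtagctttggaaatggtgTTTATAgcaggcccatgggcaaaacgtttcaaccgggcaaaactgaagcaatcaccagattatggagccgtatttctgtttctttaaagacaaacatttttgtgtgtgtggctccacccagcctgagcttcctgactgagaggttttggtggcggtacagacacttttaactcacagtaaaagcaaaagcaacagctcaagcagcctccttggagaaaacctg
GIMAP8 promoter, chr7:150450380-150450679 (GRCh38.p14, plus strand): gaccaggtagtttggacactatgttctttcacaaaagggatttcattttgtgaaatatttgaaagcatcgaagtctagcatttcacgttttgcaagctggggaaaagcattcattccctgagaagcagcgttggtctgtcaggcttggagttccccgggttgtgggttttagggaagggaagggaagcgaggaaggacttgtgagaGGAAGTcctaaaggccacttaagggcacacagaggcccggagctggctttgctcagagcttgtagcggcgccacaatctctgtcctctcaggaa
GIMAP5 promoter, chr7:150737168-150737467 (GRCh38.p14, plus strand): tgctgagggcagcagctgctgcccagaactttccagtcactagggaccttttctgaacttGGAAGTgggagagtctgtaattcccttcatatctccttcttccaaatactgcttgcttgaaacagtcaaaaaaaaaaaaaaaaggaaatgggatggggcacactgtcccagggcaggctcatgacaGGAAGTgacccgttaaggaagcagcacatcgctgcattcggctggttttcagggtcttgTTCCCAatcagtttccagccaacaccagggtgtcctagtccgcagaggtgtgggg
GIMAP4 promoter, chr7:150567140-150567439 (GRCh38.p14, plus strand): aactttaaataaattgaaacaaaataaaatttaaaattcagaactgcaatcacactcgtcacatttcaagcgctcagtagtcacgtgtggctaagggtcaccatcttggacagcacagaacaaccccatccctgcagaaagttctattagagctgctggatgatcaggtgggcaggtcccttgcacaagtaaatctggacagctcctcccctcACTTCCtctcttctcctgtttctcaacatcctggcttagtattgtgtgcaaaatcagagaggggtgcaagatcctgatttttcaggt
Both strands of each promoter were searched for the core letters bound by several families of lymphocyte factors, and for the letters of the TATA box. The core of ETS factors, GGAAGT, was in 4 of the 7 promoters (GIMAP4, GIMAP5, GIMAP6 and GIMAP8), against 22.8% of 35116 promoters of this length. The core read by RBPJ, the DNA-binding partner of NOTCH, searched as TGGGAA, was in 2 promoters (GIMAP1 and GIMAP5), against 24.0%, and it can overlap the ETS core by sharing its first letters. The TATA box letters, searched as TATAAA, were in 1 promoter (GIMAP7, on the minus strand at position -173 from the gene start), against 11.5%. The FOXO letters, searched as GTAAACA, were in 0 of the 7, against 3.42% of all promoters. The RUNX letters, searched as TGTGGT, were in 0 of the 7 as well, against 13.1%. These matches describe letters in a window and not bound sites. The member promoters held between 40.3% and 50.7% G and C bases, below the median of 58.7% over the same promoters.

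Each library's normalized counts added up to between 13574800 and 16097400. Many T-lineage genes were abundant, with CD3E, a subunit of the T-cell receptor complex, at 11530 to 18477 normalized counts. Others of that list were low: PTCRA reached 8.14, CD27 11.3, CD8B 14.9, CD2 37.6 and CD8A 43.0. Markers of other cells that use GIMAP genes were mixed. Among B-cell genes PAX5 reached 12.1, but CD79A was at 9400 to 22251, EBF1 at 168 to 418 and CD79B at 54.5 to 164. Among natural killer and cytotoxic genes NCAM1 reached 5.17, but NKG7 was at 206 to 497 and PRF1 at 283 to 859. Among endothelial genes CDH5 reached 3.35, but PECAM1 was at 382 to 746. Keratins, which lymphoid cells are not known for, stood out in 6 libraries with a summed KRT8, KRT18 and KRT19 level above 100. In full medium on day 6 the sum was 383 in replicate 1 and 1406 in replicate 2, at 50% on day 6 it was 1196 in replicate 1 and 119 in replicate 2, and at 25% on day 9 it was 788 in replicate 1 and 1358 in replicate 3. No-histidine libraries reached 8.89, and every other library stayed at or below 60.3. Calls of members and lists that rest on these libraries are given with and without them, and in bulk RNA fewer cells of a type and less RNA per cell cannot be told apart.

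Of the 7 members, 6 had 10 or more normalized counts in 2 or more libraries and were tested. GIMAP4, a GTPase described in the timing of lymphocyte death in rodents, did not. It was listed at 0 in 5 libraries and reached at most 8.40. The 3 no-histidine libraries were all at 0, against 7.35, 2.34 and 2.51 in full medium on day 6. At 25% on day 9, where most other members were at their highest, GIMAP4 was at 0, 0 and 1.65, against 6.64, 3.82 and 3.61 in full medium. Values this low were not tested. Divided by the length of the longest coding transcript, mean levels over the 25 libraries were 691 normalized counts per kb for GIMAP2, 604 for GIMAP5, 573 for GIMAP6, 489 for GIMAP7, 148 for GIMAP1, 12.5 for GIMAP8 and 1.65 for GIMAP4. GIMAP2, GIMAP5, GIMAP6 and GIMAP7 thus sat within a narrow range per length, with GIMAP1 lower and GIMAP8 far lower. A readthrough transcript, GIMAP1-GIMAP5, was at 0 to 212 normalized counts and was not called in any comparison, and 98.8% of its 31-base runs also occur in the members. It shares 27.7% of the runs of GIMAP5 and 8.33% of those of GIMAP1, so the levels of this row, and to that extent of the GIMAP1 and GIMAP5 rows, are uncertain. The readthrough row had its highest mean of each day at 25%. It averaged 90.8 ± 24.3 at 25% and 21.8 ± 19.0 in full medium on day 6, and 164 ± 58.9 and 71.5 ± 43.8 on day 9 (SD). Its part in the GIMAP5 levels at 25% was not tested.

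**Figure D1:**
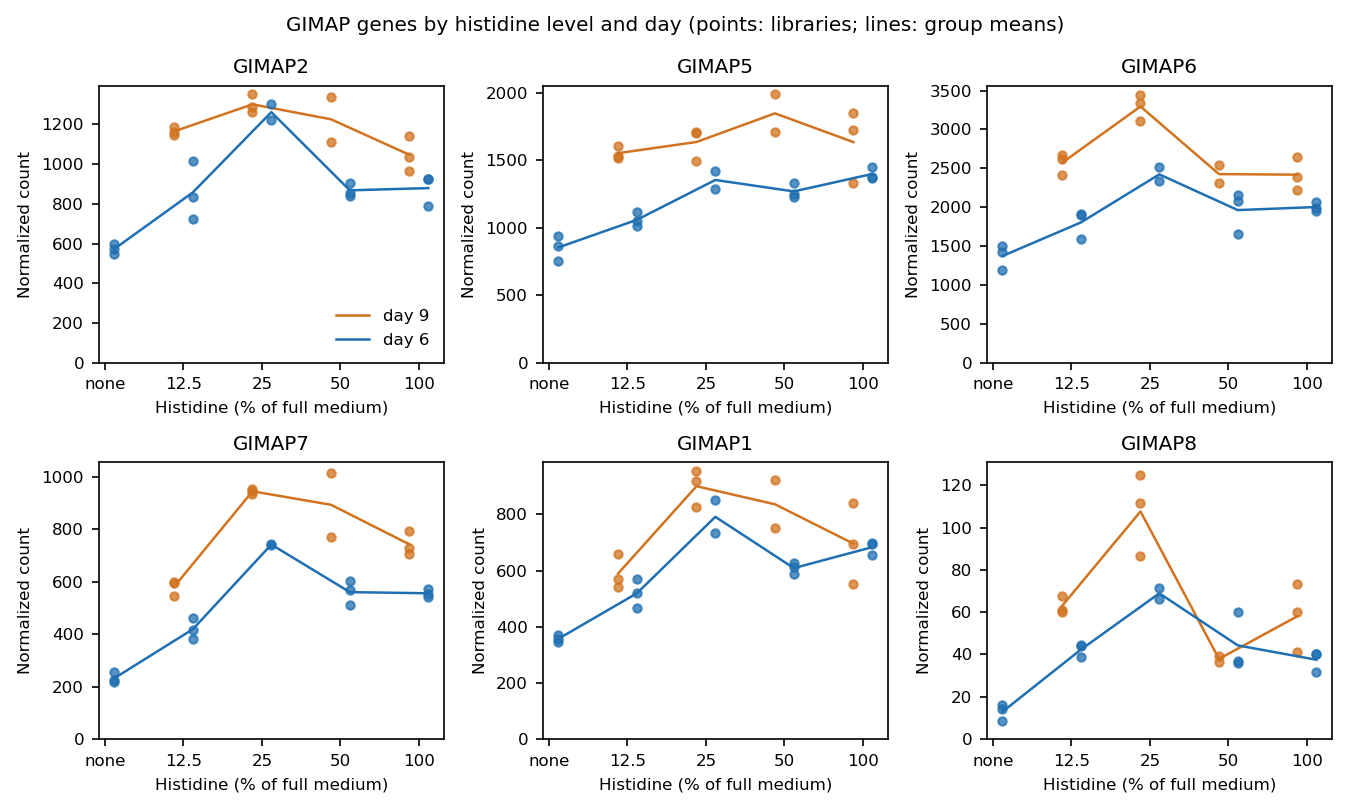
Normalized counts (vertical axes) of the 6 tested GIMAP genes at each histidine level (horizontal axes, percent of full medium), with a point for each library, lines through the group means, and day 9 in orange and day 6 in blue. No-histidine libraries, present on day 6 only, are the lowest group for each of the 6 genes, and the means of GIMAP1, GIMAP2, GIMAP6, GIMAP7 and GIMAP8 peak at 25% on both days.

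Without histidine all 6 tested members were lower than in full medium on day 6. The 3 no-histidine libraries lay below the 3 full-medium libraries for each of the 6 genes. The share of all tested genes separated in this way was not counted, so nothing is read from the separation. GIMAP7, reported in vitro to stimulate the GTPase activity of GIMAP2, had 223, 218 and 255 normalized counts without histidine, against 555, 541 and 571 in full medium. GIMAP8, the member with several GTPase domains in one protein, had 8.42, 14.2 and 16.0 without histidine, against 31.9, 40.3 and 40.4 in full medium. These were the largest differences of the family on the log2(normalized count + 1) scale, with GIMAP8 lower by a log2 change of -1.51 ± 0.26 (SE) and GIMAP7 by -1.26 ± 0.10 (limma, Benjamini-Hochberg adjusted over 18799 genes, adjusted p = 9.16e-05 and 1.59e-09).

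GIMAP1, needed in mice for mature lymphocytes, had 344, 358 and 369 normalized counts without histidine, against 699.8, 655 and 696 in full medium. The change was -0.93 ± 0.12 (limma, adjusted p = 2.68e-06). GIMAP5, the lysosome-associated survival factor known from lymphopenic rats, had 756, 940.1 and 864 without histidine, against 1374, 1453 and 1366 in full medium. The change was -0.72 ± 0.10 (limma, adjusted p = 1.07e-05). GIMAP2, which coats lipid droplets in T-cell lines, had 546, 599.8 and 573 without histidine, against 924, 925 and 789 in full medium. GIMAP6, which takes part in autophagy and had the highest counts of the family, had 1189.8, 1427 and 1496 without histidine, against 2070.1, 1988 and 1948 in full medium. GIMAP2 changed by -0.61 ± 0.10 and GIMAP6 by -0.55 ± 0.10 (limma, adjusted p = 6.72e-05 and 0.000215).

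Calls in this comparison were common: 29.8% of all tested genes were called, 13.3% higher and 16.5% lower, beside 6 of 6 members called lower, and nothing is read from the members' count because the family was proposed with this contrast in view. The median log2 change was -0.83 over the 6 members and 0.03 over all tested genes. The 6 genes were each called when any 1 library of the compared groups was left out. Leaving out the 6 keratin-high libraries leaves 1 full-medium library on day 6, which is assumed to vary like the other groups. The median log2 change of the 6 members was then -0.82, and GIMAP2, at -0.46, lost its call. Of 5 tested B-cell markers, 0 were higher and 3 lower without histidine (CD79A by -0.44, CD79B by -0.72 and EBF1 by -0.81, limma, adjusted p = 0.0191, 0.0228 and 0.00181), and none of the 3 was called without the keratin-high libraries (adjusted p = 0.0971, 0.487 and 0.116). Their summed level was 9674 to 13269 without histidine, 11102 to 16935 at 12.5%, 19331 to 21275 at 25%, 12314 to 15345 at 50% and 15269.8 to 16901 in full medium on day 6. On day 9 the sum was 9716 to 11511 at 12.5%, 18984 to 22795 at 25%, 17318 to 19793 at 50% and 14625 to 18131 in full medium, and the part of these markers in the GIMAP differences was not tested.

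The drop was already seen between no histidine and 12.5%. All 6 members were lower without histidine than at 12.5% on day 6, where 15.3% of all tested genes were called, 7% higher and 8.26% lower. GIMAP8 stood at 38.6, 43.9 and 44.4 normalized counts at 12.5%, so that its no-histidine level differed by -1.68 ± 0.26 (limma, adjusted p = 8.35e-05), and GIMAP7 at 415, 381 and 459.8 differed by -0.85 ± 0.10 (adjusted p = 2.68e-06). GIMAP2 changed by -0.57, GIMAP1 by -0.53, GIMAP6 by -0.40 and GIMAP5 by -0.31 (limma, adjusted p = 0.000504, 0.0042, 0.0103 and 0.0444). The GIMAP5 call was lost when any of the 3 libraries at 12.5% or no-histidine replicate 1 or 3 was left out (adjusted p between 0.0605 and 0.172). The GIMAP6 call was lost without replicate 2 at 12.5% (adjusted p = 0.0573) or no-histidine replicate 1 (0.0578).

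At 12.5% against full medium fewer members were called. On day 6, where 27% of all tested genes were called (11.7% higher and 15.3% lower), GIMAP7, GIMAP5 and GIMAP1 were lower and the other 3 were not called, and differences between members were not tested. GIMAP7 averaged 419 ± 39.4 at 12.5% and 556 ± 15.2 in full medium, a change of -0.41 ± 0.10 (SE, limma, adjusted p = 0.00421). GIMAP5 changed by -0.40 and GIMAP1 by -0.40 (limma, adjusted p = 0.00579 and 0.0179). GIMAP2 averaged 858 ± 146 at 12.5% and 879 ± 78.3 in full medium, GIMAP6 1804 ± 179.8 and 2002 ± 62.4, and GIMAP8 42.3 ± 3.23 and 37.5 ± 4.89 (SD, n = 3 each). The libraries of the 2 groups overlapped for GIMAP2 and GIMAP8, while the 3 GIMAP6 libraries at 12.5% lay below those in full medium, with no call.
The GIMAP1 call on day 6 was lost without full-medium replicate 1 or 3 or replicate 1 at 12.5% (adjusted p between 0.0536 and 0.0957), and none of the 3 was called without the keratin-high libraries (GIMAP7 -0.45, adjusted p = 0.0768).

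On day 9 only GIMAP7 was called at 12.5%, where 20.8% of all tested genes were called, 9.35% higher and 11.5% lower. It had 600.4, 544 and 596 normalized counts at 12.5%, against 729, 704 and 793 in full medium, and changed by -0.35 ± 0.10 (limma, adjusted p = 0.0153). The call was lost without full-medium replicate 3 (adjusted p = 0.0769) or replicate 2 at 12.5% (0.0724), and 2 members were called lower without full-medium replicate 2. GIMAP5 averaged 1552 ± 47.8 at 12.5% and 1634 ± 272 in full medium, GIMAP6 2571 ± 141 and 2418 ± 211, and GIMAP2 1165 ± 19.7 and 1047 ± 88.2 (SD, n = 3 each). For GIMAP5 the difference between the days in the change at 12.5%, day 9 minus day 6, was 0.34 ± 0.15 (limma, unadjusted p = 0.0305, adjusted p = 0.439), so a smaller loss on day 9 was not shown. None of the 6 members was called for such a difference between days, at 12.5% (0.0638% of all tested genes called, 0.0426% with a higher change on day 9 and 0.0213% with a lower one) or at 25% (0.00532%).

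At 25% histidine the members that were called were higher than in full medium. By mean, GIMAP1, GIMAP2, GIMAP6, GIMAP7 and GIMAP8 were at their highest of each day, and GIMAP5 was not. On day 6 GIMAP2 had 1302 and 1222 normalized counts at 25%, against 924, 925 and 789 in full medium, and GIMAP7 had 744 and 739, against 555, 541 and 571. Both genes were higher at 25%, GIMAP2 by 0.52 ± 0.12 and GIMAP7 by 0.42 ± 0.11 (limma, adjusted p = 0.00316 and 0.0162). They were 2 of 6 members called, where 13.7% of all tested genes were called, 6.79% higher and 6.92% lower. GIMAP8 had 71.4 and 66.4 at 25%, above each full-medium library, but its change of 0.87 ± 0.29 did not pass (limma, adjusted p = 0.0511), nor did that of GIMAP6, 0.27 ± 0.12 (adjusted p = 0.127). GIMAP5 was at 1421 and 1285 at 25%, against 1374, 1453 and 1366 in full medium, so its libraries overlapped. The 25% group has 2 libraries: without replicate 2 no member was called, without replicate 3 or without full-medium replicate 2 GIMAP2 alone was called, and so too without the keratin-high libraries (0.68, adjusted p = 0.0307).

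On day 9, with 3 libraries at 25%, 5 of the 6 members were higher than in full medium, where 18.2% of all tested genes were called, 9.4% higher and 8.76% lower. GIMAP6 had 3337, 3447 and 3105 normalized counts at 25%, against 2641, 2220.2 and 2395 in full medium, and changed by 0.45 ± 0.10 (limma, adjusted p = 0.00313). GIMAP8 had 125, 112 and 86.3, against 59.9, 41.2 and 73.2, and changed by 0.90 ± 0.26 (limma, adjusted p = 0.018). The libraries of the 2 groups did not overlap for GIMAP2, GIMAP6, GIMAP7 and GIMAP8, and overlapped for GIMAP1 and GIMAP5. The share of all tested genes separated in this way was not counted, so nothing is read from it. GIMAP1 changed by 0.39, GIMAP7 by 0.35 and GIMAP2 by 0.32 (limma, adjusted p = 0.0294, 0.019 and 0.0363). GIMAP5 was not called, with 1635 ± 122 at 25% and 1634 ± 272 in full medium (SD, n = 3 each). Differences between members at 25% were not tested. The calls of GIMAP1, GIMAP2, GIMAP7 and GIMAP8 leaned on single libraries: 1 member was called without replicate 2 at 25% or full-medium replicate 2, 2 without replicate 1 at 25%, 3 without replicate 3 at 25% or full-medium replicate 3, and GIMAP6 in each of these fits. GIMAP7 also lost its call without full-medium replicate 1 (adjusted p = 0.0565). GIMAP6 was also the member called without the keratin-high libraries (0.51, adjusted p = 0.0445, with 1 library left at 25%). With the keratin level as a covariate GIMAP6 and GIMAP8 were called (0.41 and 0.91, adjusted p = 0.0224 and 0.0486).

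**Figure D2:**
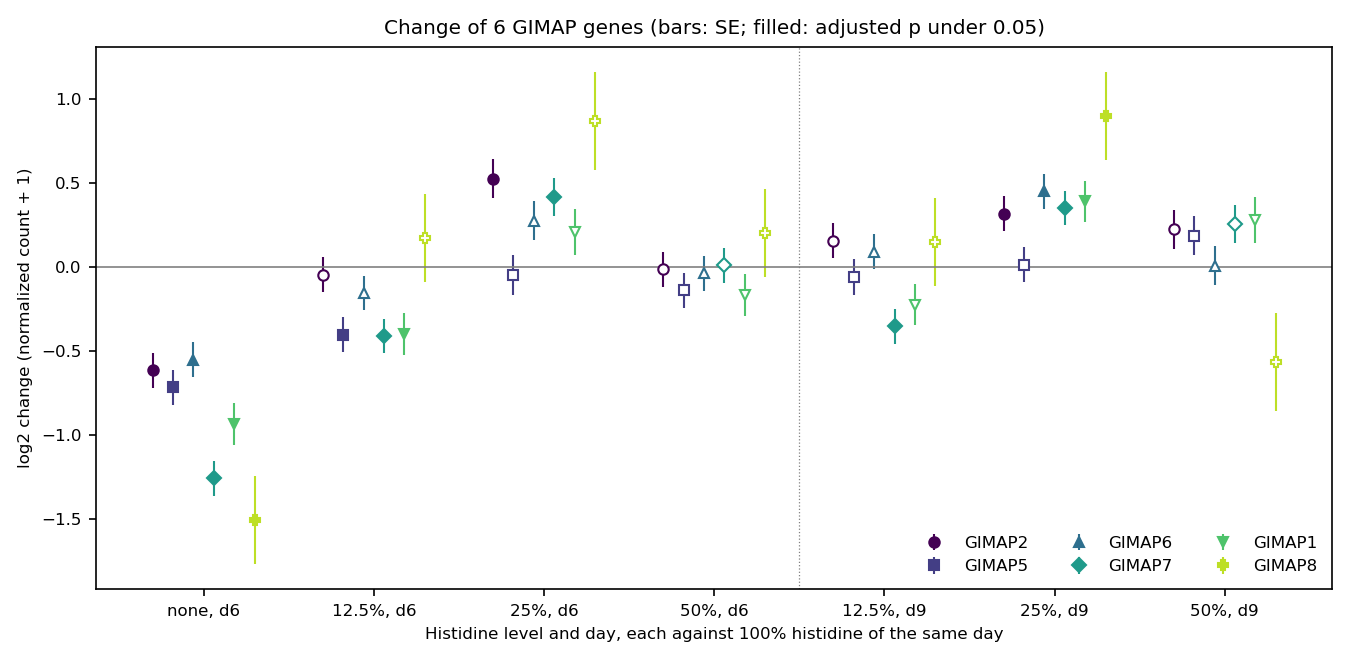
Log2 change in normalized count + 1 (vertical axis, with SE bars) of each tested GIMAP gene at each histidine level against full medium of the same day (horizontal axis), with filled markers where limma's adjusted p was under 0.05. All 6 genes lie below 0 without histidine, GIMAP7 lies below 0 at 12.5% on both days, and at 25% GIMAP5 lies nearest to 0 on both days.

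By group mean, most members were highest at 25% and not in full medium. On day 6 the means at 25% were the highest of the day for GIMAP1, GIMAP2, GIMAP6, GIMAP7 and GIMAP8, and that of GIMAP5 was highest in full medium. On day 9 the same 5 were highest at 25%, and GIMAP5 at 50%, where its 2 libraries had 1988 and 1706. Set against 12.5%, the 25% libraries of day 6 did not overlap with those at 12.5% for 6 of 6 members, with 12.5% the lower, as was so for 23.6% of all tested genes. On day 9 this held for 5 of 6, all but GIMAP5, and for 14.8% of all tested genes. Set against 50%, the 25% libraries were higher without overlap for 5 of 6 members on day 6, all but GIMAP5, and for 20.3% of all tested genes. On day 9 they were so for 2 of 6, GIMAP6 and GIMAP8, and for 20.2%. These orders are a description with no test. The listed 5.8S rRNA signal followed part of the same order: on day 6 it was 74.8 to 88.2 normalized counts at 12.5%, 314 to 674 at 25% and 145 to 157 at 50%, and on day 9 it was 95.8 to 152 at 12.5%, 236 to 882 at 25% and 142 to 593 at 50%. Without histidine it was 119.6 to 242, against 153 to 1181 in full medium on day 6, and full medium on day 9 held 157 to 360.2. Its part in the GIMAP levels was not tested.

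At 50% histidine no member was called on either day. On day 6, 0% of all tested genes were called (0 in limma, 695 with an unadjusted p under 0.05), and on day 9 0.00532% were. GIMAP7 had 569.6, 601 and 509.5 normalized counts at 50% on day 6, on both sides of its full-medium libraries. On day 9 it had 1014 and 772 at 50%, against 729, 704 and 793 in full medium, a change of 0.26 (limma, unadjusted p = 0.0364, adjusted p = 0.996). GIMAP8 had 36.4 and 39.4 at 50% on day 9, against 59.9, 41.2 and 73.2 in full medium. A p that misses the threshold does not show that the groups were alike.

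Full medium was also compared between the days. GIMAP7 had 729, 704 and 793 normalized counts on day 9, against 555, 541 and 571 on day 6, a change of 0.42 ± 0.10 (limma, adjusted p = 0.033). It was the 1 member of 6 called, where 2.17% of all tested genes were called, 1.1% higher and 1.07% lower. The call was lost when any 1 of the 6 full-medium libraries was left out (adjusted p between 0.0628 and 0.134). Full-medium replicates 1 and 2 of day 6 were high in keratin, and the full-medium libraries of day 9 were not. GIMAP8 averaged 58.1 ± 16.1 on day 9 and 37.5 ± 4.89 on day 6, GIMAP6 2418 ± 211 and 2002 ± 62.4, and GIMAP2 1047 ± 88.2 and 879 ± 78.3 (SD, n = 3 each), each with an unadjusted p under 0.05 and no call. Since no-histidine libraries of day 9 were not analysed here, the full range of the family could be followed on day 6 only.

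Summed over the 7 members, a library held 3068 to 3572 normalized counts of GIMAP RNA without histidine, 4258 to 5064 at 12.5%, 6381 to 6907 at 25%, 4867 to 5604 at 50% and 5412 to 5662 in full medium on day 6. On day 9 the sums were 6386 to 6617 at 12.5%, 7821 to 8416 at 25%, 6921 to 7622 at 50% and 5816 to 7267 in full medium. The no-histidine libraries lay below all others of day 6, and the 25% libraries lay above all others of their day. GIMAP6, GIMAP5 and GIMAP2 hold most of these sums.

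Of 15 tested neighbours on chromosome 7, 2 were higher and 3 lower without histidine than in full medium on day 6, with a median log2 change of -0.15, and these shares are near those of all tested genes (13.3% higher and 16.5% lower). Without the keratin-high libraries 0 were higher and 2 lower (8.05% and 9.55% of all tested genes), KCNH2 and TMUB1. On the side of GIMAP8 the nearest tested gene, ZNF775, a zinc finger gene, changed by -0.38, and LRRC61 farther out by 0.52 (limma, adjusted p = 0.0402 and 0.00341). On the side of GIMAP5 the nearest tested gene, KCNH2, a potassium channel gene, averaged 10.4 normalized counts without histidine and 32.4 in full medium and changed by -1.57 ± 0.49 (limma, adjusted p = 0.0175). TMUB1 was lower by -0.69 and AGAP3 higher by 0.39 (adjusted p = 0.000331 and 0.0159). TMEM176B, which lies between GIMAP5 and KCNH2, was near 0 and was not tested. At 12.5% on day 6, 1 neighbour was higher (ASIC3) and 3 lower (TMUB1, CDK5 and REPIN1), beside 11.7% and 15.3% of all tested genes. At 25% 2 were higher on day 6 and 1 on day 9, and 0 lower on either day. The shares of all tested genes at 25% were 6.79% higher and 6.92% lower on day 6, and 9.4% and 8.76% on day 9. Without the keratin-high libraries 0 were called at 25% on either day, and CDK5 and REPIN1 lost their calls at 12.5% on day 6 (adjusted p = 0.111 and 0.131).

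**Figure D3:**
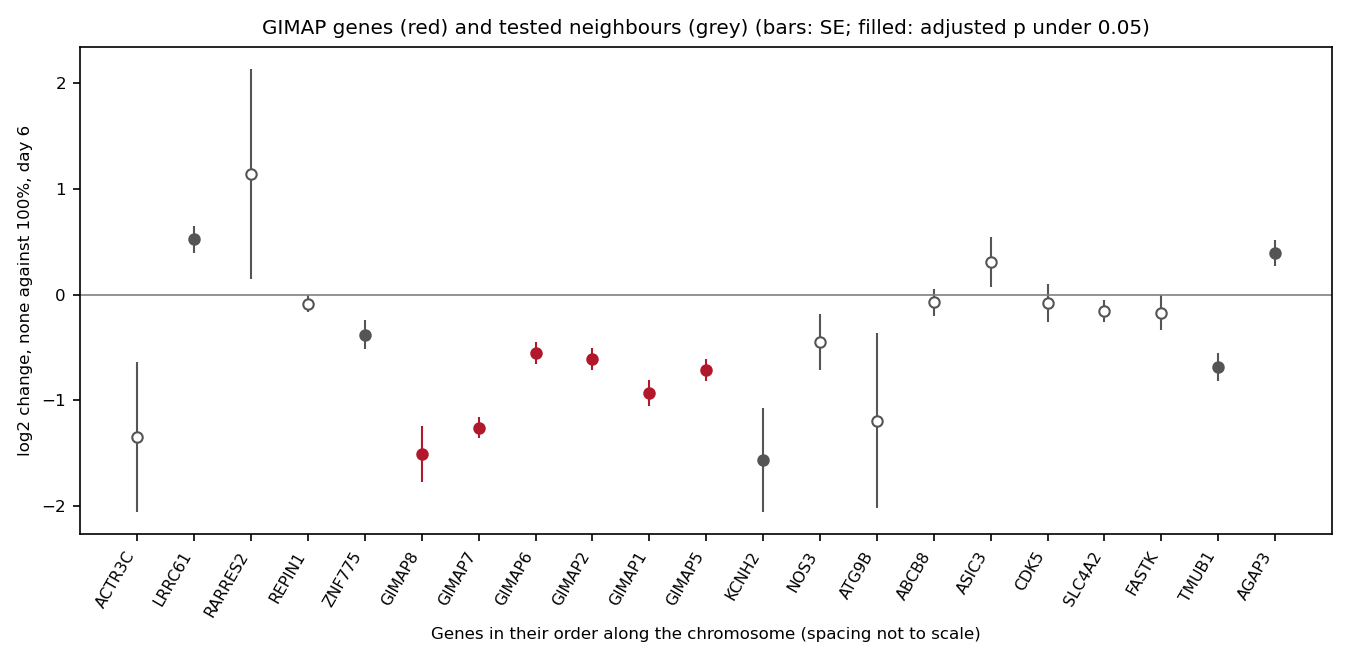
Log2 change in normalized count + 1 without histidine against full medium on day 6 (vertical axis, with SE bars) for the 6 tested GIMAP genes and 15 tested neighbours, in their order along the chromosome (horizontal axis, not to scale), with filled points where limma's adjusted p was under 0.05. The 6 GIMAP genes lie below 0, and neighbours on both sides lie above and below it.

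Other genes of the same protein fold and of lymphocyte homeostasis were set beside the family. Of 19 tested septin and dynamin-like GTPase genes, 1 was higher and 10 were lower without histidine on day 6 (13.3% and 16.5% of all tested genes), with a median log2 change of -0.28. Among them the interferon-induced MX1 averaged 129 normalized counts without histidine and 284 in full medium (-1.12, adjusted p = 1.5e-05, limma). GBP1, a guanylate-binding protein, changed by -0.79 and SEPTIN6, a cytoskeletal septin, by -0.43 (adjusted p = 7.11e-06 and 6.56e-05). SEPTIN5 averaged 9.68 without histidine and 102 in full medium (-3.30, adjusted p = 0.000885). At 25% 2 of these 19 were higher and 4 lower on day 6 (6.79% and 6.92% of all tested genes), and 2 were higher and 5 lower on day 9 (9.4% and 8.76%). Without the keratin-high libraries 0 were higher and 5 lower without histidine, the 4 genes named here among them, and at 25% 0 were called on day 6 and 3 were lower on day 9.

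Of 20 genes of naive lymphocytes and quiescence, 6 were higher and 4 lower without histidine on day 6, and at 25% on day 9 10 were higher and 1 lower. Of all tested genes 13.3% were higher and 16.5% lower without histidine, and 9.4% and 8.76% at 25% on day 9. IL7R, the interleukin-7 receptor that sustains resting T cells, followed the GIMAP directions: it averaged 5465 ± 317 without histidine and 7315 ± 96.1 in full medium on day 6 (-0.42, limma, adjusted p = 0.000107), and at 25% it was higher by 0.40 on day 6 and 0.30 on day 9 (adjusted p = 0.00174 and 0.0052). TXNIP, an arrestin-domain protein that restrains glucose uptake, did not: it averaged 5185 ± 117 without histidine and 2187 ± 35.0 in full medium (1.24, adjusted p = 1.13e-08), and BTG1, an antiproliferative gene, changed by 0.93 (adjusted p = 6.17e-06). KLF3 and PIK3IP1 were also higher without histidine, by 0.92 and 0.85 (adjusted p = 0.000193 and 0.00273). S1PR1, the receptor that guides lymphocytes out of tissue, was higher at 25% on day 9 by 1.00 (adjusted p = 0.0181). BACH2, a repressor of effector genes, was higher at 12.5% by 1.29 on day 6 and 0.92 on day 9 (adjusted p = 1.3e-07 and 1.35e-05). The T-cell factor LEF1 was lower without histidine by -0.55 (adjusted p = 2.32e-06), and TCF7 was lower at 25% on day 9 by -0.44 (adjusted p = 0.00397). Without the keratin-high libraries 5 of the 20 were higher and 3 lower without histidine, and 7 higher and 0 lower at 25% on day 9. At 25% the calls of IL7R on day 6 (adjusted p = 0.0636) and day 9 (0.0673), S1PR1 (0.222) and TCF7 (0.068) were then lost. KLF2 was below 20 on average in each group compared and was not called.

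NOTCH signalling drives this kind of leukaemia. Of 13 tested NOTCH receptors and targets 0 were higher and 4 lower without histidine on day 6 (13.3% and 16.5% of all tested genes), with a median log2 change of -0.06. NOTCH3 averaged 9617 ± 733 without histidine and 16407 ± 314 in full medium (-0.77, limma, adjusted p = 0.000107), and DTX1 changed by -0.70 (adjusted p = 1.78e-05). NOTCH1, HES1 and MYC were not called there. At 25%, 2 of the 13 were higher and 1 lower on each day (6.79% and 6.92% of all tested genes on day 6, 9.4% and 8.76% on day 9). RBPJ was higher by 0.61 and 0.37 and the NOTCH target TRIB2 by 0.61 and 0.76 on days 6 and 9 (adjusted p = 0.000244, 0.0052, 5.31e-05 and 4.45e-07), and these 2 were named after their values were seen. MYC was lower on day 6 by -0.53 (adjusted p = 0.000201) and NOTCH1 on day 9 by -0.26 (adjusted p = 0.0412). Without the keratin-high libraries 0 were higher and 2 lower without histidine, and the calls of RBPJ on both days (adjusted p = 0.0503 and 0.154) and of NOTCH1 (0.624) were lost at 25%. Of 13 BCL2-family genes, which set the threshold for apoptosis, 1 was higher and 0 lower without histidine (13.3% and 16.5% of all tested genes). The higher gene was BCL2L11, which encodes the pro-apoptotic BIM. It changed by 0.32 (limma, adjusted p = 0.00808), a call lost without the keratin-high libraries. BCL2 itself, reported to bind GIMAP proteins in mice, averaged 5216 ± 202 without histidine and 5545 ± 685 in full medium and was not called at any histidine level against full medium.

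Of 22 tested T-lineage markers, 4 were higher and 5 lower without histidine on day 6, with a median log2 change of -0.03, beside 13.3% and 16.5% of all tested genes. Without the keratin-high libraries 3 were higher and 4 lower. RAG2 and RAG1, which recombine antigen receptor genes, changed by -1.27 and -0.93 (limma, adjusted p = 1.33e-10 and 9.28e-08). The adaptor LAT and the T-cell factor GATA3 were higher, by 1.22 and 1.13 (adjusted p = 3.87e-06 and 6.98e-10). CD3E averaged 13720.4 ± 1930 without histidine and 14991 ± 316 in full medium and was not called. The part of these markers in the GIMAP differences was not tested.

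**Figure D4:**
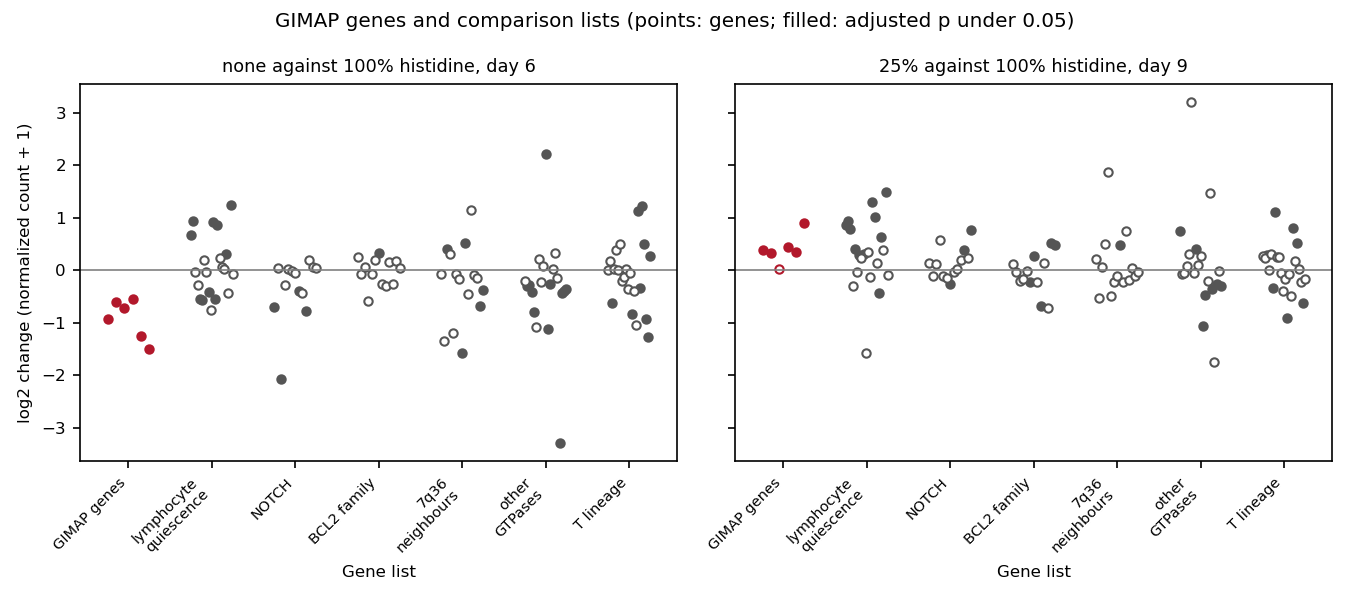
Log2 change in normalized count + 1 (vertical axis) of the GIMAP genes and of the tested genes of each comparison list (horizontal axis), without histidine against full medium on day 6 and at 25% against full medium on day 9, a point for each gene, filled where limma's adjusted p was under 0.05. The 6 GIMAP genes have a median of -0.83 without histidine and 0.37 at 25%, and the other lists hold genes on both sides of 0.

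The genes most like the 3 most abundant members across the 25 libraries were taken from 10752 genes with a mean of at least 50. The likeness is Pearson's r of log2 values and is a description, since libraries of one group share their condition. FIGNL1, an ATPase of recombination repair, led for GIMAP2 (r = 0.96) and for GIMAP6 (r = 0.94). CDC25A (0.96), WEE1 (0.95) and EED (0.95), a phosphatase and a kinase of the cell cycle and a Polycomb protein, followed for GIMAP2. MSH6 (0.94), DCLRE1B (0.94) and WEE1 (0.93) followed for GIMAP6. FIGNL1 averaged 454 ± 22.1 normalized counts without histidine, 667 ± 26.1 at 12.5%, 972 ± 21.0 at 25%, 664 ± 33.6 at 50% and 661 ± 31.3 in full medium on day 6, an order with the same peak at 25%. For GIMAP5 the nearest were FANCE (0.92), CHTOP (0.91), KCTD7 (0.90) and YWHAH (0.90), none of them among the 4 nearest to GIMAP2 or GIMAP6. FANCE, a Fanconi repair gene, averaged 323 ± 35.1 at 25% and 299 ± 34.4 in full medium on day 6. On day 9 it averaged 324 ± 42.9 and 380 ± 39.9. Its mean was highest at 25% on day 6, where that of GIMAP5 was highest in full medium. Neither gene had its highest mean at 25% on day 9. The lowest r were those of RNF139 (-0.92) and CSF1 (-0.91) for GIMAP6, GPCPD1 (-0.91) and LINC00938 (-0.91) for GIMAP5, and SPRYD4 (-0.93) and FAM219A (-0.93) for GIMAP2. Within the family, r between GIMAP6 and the other tested members ran between 0.85 and 0.92, and r between GIMAP5 and GIMAP8 was 0.74. Over the 19 libraries that were not high in keratin these were 0.84 to 0.92 and 0.76, and r with FIGNL1 was 0.97 for GIMAP2 and 0.94 for GIMAP6.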

How the data were processed

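The deposited values are signal, normalized counts per gene, which the authors deposited; the submitters' processing notes name kallisto 0.50.1, DESeq2 1.44.0, FastQC 0.11.9 and GRCh38. Neither annotation release nor strand setting is given in the sources used here. Whole reads were not recovered (37.8% to 76.1% of low values, those below 20, came within 0.05 of a multiple), so depth is known only as totals of normalized counts, and scaling by size factors hides any change in a cell's total RNA. Days follow the sample titles, since the text on the series gives different ones.

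The 18799 of 31919 genes with 10 or more normalized counts in 2 or more libraries were fitted with limma 3.58.1 in R 4.3.3 on log2(normalized count + 1), a scale that understates changes of low genes, with a mean for each group, a mean-variance trend and 16 residual degrees of freedom. Two-sided p-values were adjusted over all genes within a contrast (Benjamini-Hochberg), with a threshold of 0.05. The procedure was also run on simulated data, whose outcome is not given here and is not used as support. Members and lists were chosen with earlier results of these data known, so their calls are a description and not independent evidence. From each list the rule named up to 4 called genes with the largest changes and a mean of at least 50 without histidine and at 12.5%, and a few genes whatever their values; not all are given. Gene positions come from GENCODE 29 and promoters from RefSeq, matched by symbol. Alternatives were other pseudocounts, filters and scalings, no trend, library weights and a replicate block. Others were the compared groups alone, and leaving out each library of the compared groups. A keratin covariate and a fit without keratin-high libraries were added after the data were seen. Figures were drawn with matplotlib 3.10.9.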

Additional observations from a re-analysis of the deposited data

How the results depend on the processing

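No log2 change followed here changed its sign under any alternative: of 559 values 484 kept their side of the threshold, 66 lost a call and 9 gained one. Changes with an unadjusted p of 0.05 or more were not followed. Counts of GIMAP genes called without histidine against full medium stayed at 6 with any 1 library of the compared groups left out. Those against 12.5% stayed between 4 and 6. The shares of all tested genes called were then 25% to 26.3% and 9.4% to 17.7%. The shares against full medium were 20% to 26.6% at 12.5% on day 6, 15.9% to 18.6% at 12.5% on day 9 and 13.4% to 15.4% at 25% on day 9. With 1 library left out the counts ran from 2 to 3 at 12.5% on day 6, 0 to 2 at 12.5% on day 9, 0 to 2 at 25% on day 6, 1 to 4 at 25% on day 9, and stayed at 0 for day 9 against day 6 and for 50%. At 25% on day 6, 4 genes were called with library weights, 4 in the fit on the compared groups only and 1 without the keratin-high libraries. At 12.5% on day 6, 0 were called without the keratin-high libraries. At 25% on day 9, 2 were called with the keratin covariate and 1 without the keratin-high libraries. For day 9 against day 6, 0 were called with no filter, with upper-quartile rescaling, with quantile normalization and without the keratin-high libraries, and 2 with library weights. The cause of these differences was not tested, beyond the fewer samples of the fits without libraries. Same-numbered replicates did not deviate together (mean r = 0.0025 over 92 pairs, 0 above 0.1), and 9 of 25 libraries correlated best with their own number. No pairing by number was seen, but with so few libraries in a group this check cannot exclude one. With the replicate block the counts of genes called were 6 without histidine, 3 and 1 at 12.5% on days 6 and 9, 2 and 5 at 25%, 0 at 50%, 1 for the days, and 5 for none against 12.5%, where GIMAP5 lost its call (-0.31, limma, adjusted p = 0.058). The share of all genes called without histidine ran between 16.3% and 43.4% over the alternatives, and no scaling moved the median of all genes by more than 0.0837 on the log2 scale.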
